A study of Mus musculus with 28 samples.

Results

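Among 5471 single cells sorted as CD8+ lymphocytes from mouse tumours, 123 cells (2.25%) carried many transcripts of genes that mark other cell types, and they are described here in 3 classes. The Lyz2 class held 39 cells with at least 5 unique molecular identifiers (UMIs, counts of single captured mRNA molecules) of Lyz2. The MHC class II class held 54 cells with at least 15 UMIs of H2-Aa, H2-Ab1 and H2-Eb1 together, and the keratin class held 47 cells with at least 5 UMIs of Krt8 and Krt18 together. The remaining 5348 cells are called cells outside the classes. These thresholds chose the members, so the levels of the 6 genes and the ratios of any gene between a class and the outside cells are descriptions and were not tested.

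All samples came from wild-type C57BL/6 mice carrying tumours grown from MC38-OVA, mouse colon carcinoma cells with an ovalbumin antigen. Cells lacking both Tim-3 and PD-1 among the CD8+ tumour-infiltrating lymphocytes (DN) were sorted at day 12 from mice given antibodies against PD-1 and Tim-3 (blockade) and from mice given isotype control antibodies (isotype), with 1 droplet library for each treatment. Bulk libraries of about 2000 cells were made from DN cells and from Tim-3+PD-1+ CD8+ cells (DP) of the same treatments, with 3 libraries in each of the 4 groups. A further 14 bulk libraries split PD-1-CD8+ tumour lymphocytes, with no treatment labelled, by surface phenotype. The 3 effector-like libraries were CD62L-Slamf7hiCX3CR1+, the 5 memory-like libraries were CD62L-Slamf7hiCX3CR1-, and the 6 naive-like libraries were CD62LhiSlamf7-CX3CR1-. The labels do not say how many mice each library came from, so p-values measure the spread between libraries, which may be technical.

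The single-cell table marks each cell with a suffix. Cells with the suffix 2 were taken as the blockade library and those with the suffix 1 as the isotype library, because the labels number the samples S2 and S1 and nothing else links them. The blockade library had 2508 cells with a median of 3838.5 UMIs, and the isotype library had 2963 cells with a median of 3649 UMIs. The libraries shared 7 cell barcodes, none of them a member. With 1 library a treatment, no difference between the single-cell libraries has a replicate check and no p-value is given. Intervals are exact 95% intervals and cover counting error only.

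Lyz2 encodes lysozyme M, a bacterial cell-wall hydrolase of monocytes, macrophages and neutrophils. H2-Aa, H2-Ab1 and H2-Eb1 encode chains of the MHC class II proteins, with which dendritic cells, macrophages and B cells present peptides to CD4 T cells. Krt8 and Krt18 encode the keratin pair of simple epithelia, the tissue from which a colon carcinoma arises. CD3, made of the Cd3d, Cd3e and Cd3g products with the zeta chain, belongs to the T cell receptor complex and is not made by any of those cells. A droplet that captures a pair of cells gives a single profile that carries the transcripts of both. In GRCm38 with the GENCODE vM21 annotation, the protein-coding gene Lyz2 spans chr10:117277331-117282321, H2-Aa spans chr17:34282744-34287823, H2-Ab1 spans chr17:34257689-34269419 and H2-Eb1 spans chr17:34305867-34316674. Krt8 spans chr15:101996698-102004482 and Krt18 spans chr15:102028180-102032027.

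Class II promoters share a Y box, the element bound by nuclear factor Y in professional antigen-presenting cells, and the promoters of a pair of class II genes that chose members are shown for this element. The sequences are the 170 bases before the gene start from RefSeq (GRCm38.p6), found for 2 of the 3 class II genes. Capitals mark each match to CTGATTGG, which was searched on both strands.
H2-Aa, chr17:34287824-34287993, minus strand: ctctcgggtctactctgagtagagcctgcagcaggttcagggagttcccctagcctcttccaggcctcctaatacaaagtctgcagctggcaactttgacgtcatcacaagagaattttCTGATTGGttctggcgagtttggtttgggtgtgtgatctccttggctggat
H2-Eb1, chr17:34305697-34305866, plus strand: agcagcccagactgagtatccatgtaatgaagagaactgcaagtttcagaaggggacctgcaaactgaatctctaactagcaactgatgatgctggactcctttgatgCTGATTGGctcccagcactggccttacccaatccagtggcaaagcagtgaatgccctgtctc
The match began 51 bases before the start of H2-Aa and 62 bases before that of H2-Eb1. The same letters occurred in 1100 of 32851 promoter windows of this length (3.35%), so a match is a description and not a binding site.

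Myeloid and class II cells were more numerous in the blockade library than in the isotype library, whereas keratin cells had similar counts in both. The Lyz2 class held 37 blockade cells (1.48% of the library, interval 1.04 to 2.03%) and 2 isotype cells (0.0675%, interval 0.00818 to 0.244%). The MHC class II class held 40 blockade cells (1.59%, interval 1.14 to 2.17%) and 14 isotype cells (0.472%, interval 0.259 to 0.791%). The keratin class held 21 blockade cells (0.837%, interval 0.519 to 1.28%) and 26 isotype cells (0.877%, interval 0.574 to 1.28%). The intervals of the 2 libraries did not overlap for the Lyz2 and MHC class II classes and overlapped for the keratin class. All 16 cells in both the Lyz2 and the MHC class II class were blockade cells, and 1 of them, with 96198 UMIs, was also the only cell shared with the keratin class. Members made up 3.23% of blockade cells and 16.6% of that library's UMIs, against 1.42% of isotype cells and 8.38% of that library's UMIs.

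**Figure D1:**
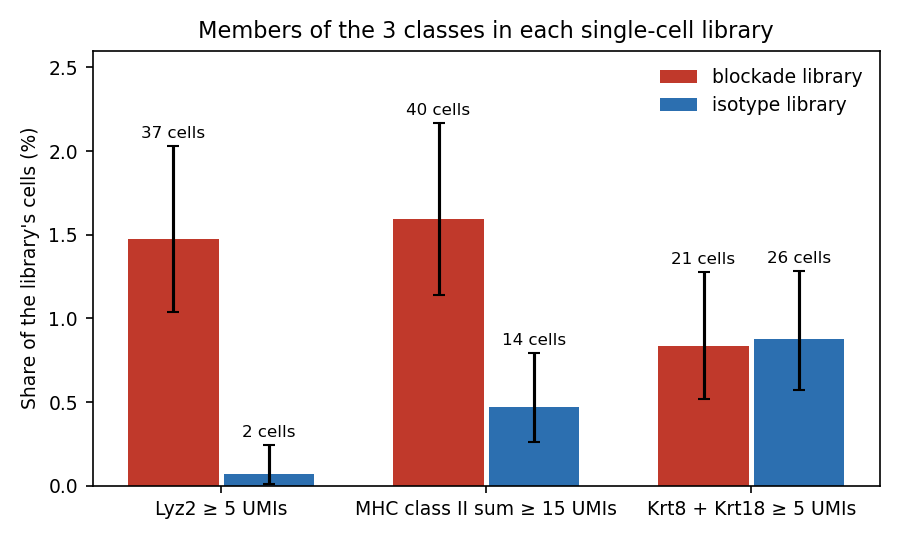
Share of each single-cell library in each class, in percent of cells, with exact 95% binomial intervals as error bars; blockade stands left of isotype. The Lyz2 class took 1.48% of blockade cells and 0.0675% of isotype cells, and the keratin class took 0.837% and 0.877%.

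The thresholds fell in sparse ranges. The lowest Lyz2 counts inside were 6, 10 and 11 UMIs, and the highest outside was 4 UMIs. The lowest class II sums inside were 18, 18 and 20 UMIs, and the highest below the threshold were 14, 11 and 8 UMIs. The cells with 14 and 11 UMIs were members of the Lyz2 class. The lowest keratin sums inside were 5, 6 and 7 UMIs, and the 3 highest outside were 4 UMIs each. The keratin limit is therefore the least separated of the 3. Outside the classes, Lyz2 had a UMI in 0.954% of cells, H2-Aa in 2.82% and Krt8 in 1.61%, at a median depth of 3718 UMIs.

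The Lyz2 class had the transcripts of monocytes and macrophages. Lyz2 ranged from 6 to 509 UMIs a cell with a median of 74, and its summed level was 7311 CPM (UMIs scaled to a common total) against 2.57 CPM outside. Of the 24 monocyte and macrophage genes with at least 20 UMIs, 23 were at least 2-fold higher than outside and none was at least 2-fold lower. Over all 10680 genes with that many UMIs, 22.1% were at least 2-fold higher and 10.8% at least 2-fold lower. The median ratio was 387 for the list and 1.28 for all genes. The list includes Lyz2, which chose the class, so the rise of Lyz2 was set by the rule. Fcer1g, the signalling chain of activating Fc receptors, had a UMI in all 39 cells, and Ctss, the lysosomal protease cathepsin S, also did. These genes were not absent outside, where Fcer1g had a UMI in 9.76% of cells and Ctss in 46.9%.

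By ratio, the leading genes of the class were Chil3, Ifitm6, Lyz2, Cxcl3, Pf4, Fcgr4, Il1rn, C1qb, Il1b and Arg1. Chil3, a chitinase-like protein of monocytes and macrophages, had 305 UMIs in 18 cells, giving 556 CPM against 0.138 CPM outside, and 47.5% of those UMIs came from 1 cell. Fcgr4, an activating Fc receptor for IgG, was detected in 34 cells at 662 CPM against 0.322 CPM outside. Il1b, the inflammatory cytokine interleukin-1 beta, was found in 31 cells, and its antagonist Il1rn in 29 cells. Cxcl3, a chemokine for neutrophils, had 208 UMIs in 10 cells and none outside, so with the limit of 3 UMIs that a count of 0 allows it was at least 2750-fold higher, with 38.0% of its UMIs in 1 cell.

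The class was mixed in its macrophage genes. The complement genes C1qa, C1qb and C1qc, which mark tissue macrophages, summed to at least 3 UMIs in 17 of the 39 cells and in none of the outside cells. C1qb averaged 1836 CPM over the class, against 0.919 CPM outside. Chil3 reached 3 UMIs in 13 cells. Arg1, which encodes arginase 1, was detected in 12 cells at 910 CPM, against 0.551 CPM outside, and 37.9% of its UMIs came from 1 cell. Ly6c2, a monocyte antigen that activated and memory CD8 T cells also carry, reached 3 UMIs in 35 members and in 3579 of the 5348 outside cells, and so does not separate the class. The 8 neutrophil genes summed to 94.8 CPM, against 8.41 CPM outside. Il1r2, the decoy interleukin-1 receptor, gave most of it, with 34 UMIs in 12 cells, while S100a8, an alarmin abundant in neutrophils, had 9 UMIs in 5 cells and the growth factor receptor Csf3r had 7 UMIs in 6 cells.

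Both isotype members of the Lyz2 class were deep cells without CD3. One had 14666 UMIs and 219 UMIs of Lyz2, and the other had 15982 UMIs and 509 UMIs of Lyz2. The 37 blockade members had a median of 7689 UMIs and of 73 UMIs of Lyz2. With only 2 isotype cells, gene levels in this class are not set against each other by library beyond the count: 73 of 3386 genes (2.16%) were higher and 104 (3.07%) lower by at least 2-fold with intervals that did not overlap. A near-identical gene, Lyz1, can share reads with Lyz2, and outside the classes it had no UMI.

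The MHC class II class was more varied. H2-Aa had a UMI in all 54 cells, with a median of 40 UMIs, H2-Ab1 in 53 cells with a median of 38, and H2-Eb1 in all 54 with a median of 21. Of the 9 class II presentation genes with at least 20 UMIs, 7 were at least 2-fold higher than outside and none lower by that much. Over all 10723 genes, 23.4% were that much higher and 8.35% that much lower. H2-Aa, H2-Ab1 and H2-Eb1, which chose the class, are among the 9 presentation genes, so their rise was set by the rule. H2-DMa, which helps load peptide onto class II, had a UMI in 51 cells. By ratio, the leading genes of the class were Fcgr4, Il1b, Cxcl9, Ifitm6, Clec4a1, C5ar1, Lyz2, Tgfbi, Pilra and Clec4a2. They were detected in part of the class, from 15 of the 54 cells (Pilra) to 29 (Il1b), and 16 cells of the class are also Lyz2-class cells. Each of these genes is also among the 30 leading genes of the Lyz2 class, with a larger ratio there, so they are not particular to this class. Fcgr4 was detected in 21 cells at 473 CPM against 0.322 CPM outside, and Tgfbi, an extracellular protein induced by TGF-beta, in 21 cells at 628 CPM against 0.873 CPM outside. Cxcl9, a chemokine for CXCR3-bearing T cells, was found in 18 cells, with 58.9% of its UMIs in 1 cell.

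Markers of several antigen-presenting cells were spread mostly over different members of the class. At least 3 UMIs were reached by the C1q genes in 12 cells, by the mature dendritic cell genes Fscn1 or Ccl22 in 11 cells, and by the plasmacytoid dendritic cell genes Ly6d, Klk1 or Cox6a2 in 11 cells. The Fscn1 or Ccl22 cells include the cell shared with the keratin class, with 10 Fscn1 UMIs and 256 keratin UMIs. They also include a cell with 6 Fscn1 UMIs, 82 UMIs of the matrix gene Col3a1 and 46 CD3 UMIs. The count is therefore not a count of mature dendritic cells. The type 2 conventional dendritic cell lectin Cd209a reached 3 UMIs in 6 cells, the B cell receptor component Cd79a in 3 cells, and the type 1 conventional dendritic cell genes Xcr1 or Clec9a in 1 cell. Of these 6 marker groups, 31 cells had 1, 5 cells had 2, 1 cell had 3 and 17 cells had none, 4 of the last being Lyz2-class cells. The 6 blockade cells with Ly6d, Klk1 or Cox6a2 had a median of 75 UMIs of them, and 4 had no CD3 UMI. The 5 isotype cells had a median of 4 UMIs, and 1 had no CD3 UMI. An isotype cell of 4987 UMIs among them also had 14 Cd79a UMIs and 6 CD3 UMIs. These 3 genes alone therefore do not name a plasmacytoid dendritic cell here. Irf8, a transcription factor of dendritic cell development, was detected in 39 cells and in 13.2% of outside cells. Ccr7, the lymph-node homing receptor, was found in 16 cells, and 39.1% of outside cells also had a UMI of it, since naive and memory T cells use it too. Siglech, a lectin of plasmacytoid dendritic cells, is a row of the single-cell table and is listed at 0 in every cell. Whether the authors' single-cell counting could assign its reads was not tested.

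**Figure D2:**
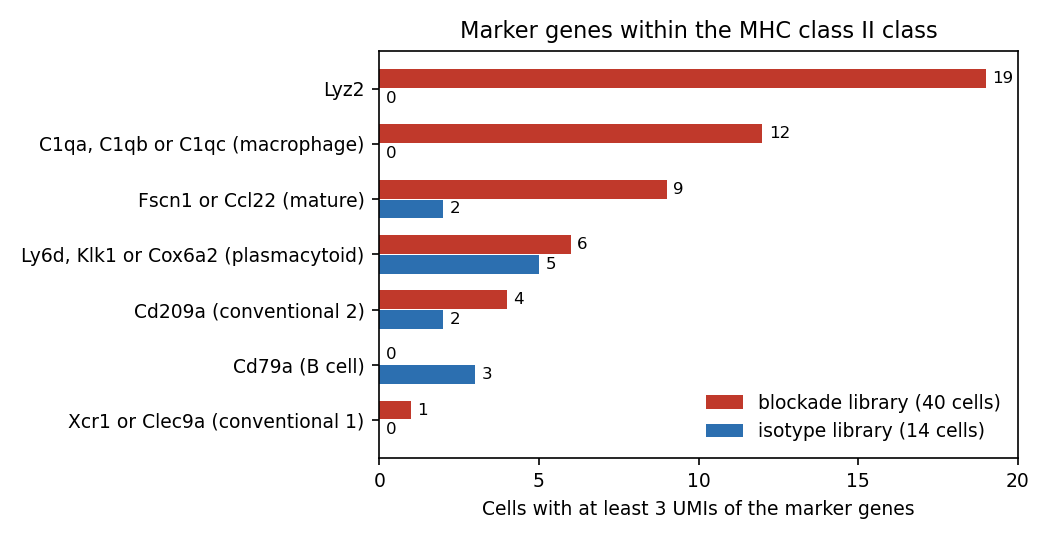
Number of MHC class II class cells with at least 3 UMIs of each marker group, on a linear axis from 0, with the blockade bar above the isotype bar in each group. Lyz2 and the C1q genes reached 3 UMIs in blockade cells (19 and 12) and in no isotype cell, whereas Cd79a did so in no blockade cell and in 3 isotype cells.

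The 8 genes with the largest ratios of blockade over isotype members of the class were Lyz2, the C1q genes and chemokines. Of 4203 genes with at least 20 UMIs in the class, 333 (7.92%) were higher and 168 (4.0%) lower in the blockade library by at least 2-fold with separate intervals. Lyz2 had 1326 UMIs in 20 of 40 blockade cells and none in the 14 isotype cells, which makes it at least 87.4-fold higher at the limit of 3 UMIs. The monocyte-attracting chemokines Ccl7 and Ccl2 had 995 and 823 UMIs in blockade cells and none in isotype cells. C1qb had 889 UMIs in 12 blockade cells and none in isotype cells. Cxcl2, C1qa and C1qc also had no UMI in isotype cells, and Ccl8 had 1.

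Many of these UMIs lay in the 16 cells shared with the Lyz2 class. Without those cells, Lyz2 had 12 UMIs in 4 of 24 blockade cells, C1qb had 125 UMIs in 1 blockade cell, and Ccl7 had 397 UMIs in 2 blockade cells, again with none in isotype cells. Lower in the blockade cells was Cd79a, with 2 UMIs in blockade cells and 26 UMIs in 3 isotype cells. H2-DMb2, a chain of the class II peptide editor, had 54 UMIs in 15 of 40 blockade cells and 65 UMIs in 12 of 14 isotype cells. Clec10a, a lectin of type 2 conventional dendritic cells, had 21 UMIs in blockade cells against 32 in isotype cells. The other lower genes named by the same rule were Plet1, Siglecg, Hhex, Lat and Hnrnph1, and 79.2% of the Plet1 UMIs came from 1 cell.

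The keratin class was the deepest. Its median was 57214 UMIs and 5771 genes a cell, against 3718 UMIs and 1259 genes outside, where the deepest cell had 31672 UMIs. Depth divided the class: 30 cells had at least 10000 UMIs (median 69212) and 17 had fewer (median 2777). The deep cells were 16 of 21 blockade cells and 14 of 26 isotype cells. The median keratin sum was 137.5 UMIs in deep cells and 10 UMIs in shallow cells. Relative to depth the order was reversed, with 19.1 keratin UMIs per 10000 UMIs over the deep cells and 36.6 over the shallow cells. The rule counts raw UMIs, so a shallow cell needs a higher density to enter, and these densities are a description.

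Keratins of simple epithelia were together in most of these cells, but Epcam and Krt7 were at or near 0. Krt8 had a UMI in all 47 cells at 1489 CPM against 4.96 CPM outside, and Krt18 had a UMI in 45 cells at 470 CPM against 1.24 CPM outside. Krt19, a further simple-epithelial keratin outside the rule, had 698 UMIs in 28 cells at 299 CPM, against 0.873 CPM outside. Epcam, the epithelial adhesion molecule, had 4 UMIs in 4 cells, giving 1.71 CPM against 5.33 CPM outside, and Krt7 had none in any class or outside. Of 11 tumour epithelial genes with at least 20 UMIs, 7 were at least 2-fold higher than outside and 3 at least 2-fold lower. Over all 11138 genes, 27.9% were that much higher and 19.3% that much lower. Krt8 and Krt18, which chose the class, are among the 7 higher genes, so their rise was set by the rule. Besides the 3 keratins, the higher genes were Areg and Ereg, ligands of the EGF receptor, Cd9, a tetraspanin, and Jup, a junction protein. Areg was detected in 36 cells at 217 CPM against 1.42 CPM outside, and Cd9 in 43 cells at 538 CPM against 38.8 CPM outside. Jup was found in 21 cells at 13.7 CPM, against 0.505 CPM outside. Epithelial genes other than keratins were thus in part present and in part at or near 0, and the class is called here by its keratins.

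Outside the epithelial list, the class carried matrix, growth factor and division genes. Its leading genes by ratio were Tinagl1, Oaf, S100a16, Cda, Bdnf, Wnt7b, Fst, Ecscr, Col18a1 and Bok. Oaf had 1529 UMIs in 36 cells at 655 CPM, against 0.965 CPM outside. Wnt7b, a Wnt ligand, was detected in 34 cells, and Bdnf, a neurotrophin, in 30 cells. Fst, the activin antagonist follistatin, had 62.2% of its UMIs in 1 cell.

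Spp1, the secreted phosphoprotein osteopontin, was detected in 43 cells at 1941 CPM, against 7.35 CPM outside. Of 9 stromal and endothelial genes with at least 20 UMIs, 7 were at least 2-fold higher, led by the matrix genes Sparc in 36 cells, Fn1 in 30 cells and Col3a1 in 22 cells. The other 2, Thy1 and Pecam1, were at least 2-fold lower, and with Thy1, which T cells also carry, at 5.57 CPM against 625 CPM outside, the list summed to 528 CPM against 655 CPM outside. Fscn1, the actin-bundling protein used above as a mature dendritic cell marker, was detected in 38 keratin cells, and so does not mark dendritic cells here. Of 14 cell-cycle genes, 10 were at least 2-fold higher and none that much lower, with Birc5 (survivin) at 237 CPM against 30.4 CPM outside. All 14 core T cell genes were at least 2-fold lower.

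Genes of the interferon response led those higher in blockade than in isotype keratin cells. The response raises GTPases that restrict microbes inside cells, such as Irgm1 and Igtp, and parts of MHC class I presentation. Of 7075 genes with at least 20 UMIs, 224 (3.17%) were higher in the blockade cells by at least 2-fold with separate intervals, and 84 (1.19%) lower. By ratio the 8 leading higher genes were Irgm1, Fst, Ube2l6, Ifit3, Xaf1, Igtp, Gbp4 and Rtp4, and all but Fst belong to the interferon response. Irgm1 had 336 UMIs in 17 of 21 blockade cells (234 CPM, interval 209 to 260) and 2 UMIs in 2 of 26 isotype cells (2.23 CPM, interval 0.27 to 8.06). Igtp had 477 UMIs in 18 blockade cells (332 CPM) and 11 UMIs in 5 isotype cells (12.3 CPM). Ube2l6, which encodes an enzyme that conjugates the ubiquitin-like protein ISG15, had 163 UMIs in 19 blockade cells and 3 UMIs in 2 isotype cells.

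Promoters of 3 of these genes are shown because they carry the interferon-stimulated response element, read here as GAAA, any 2 bases and GAAA, searched on both strands of the 170 bases before the start and marked in capitals. The RefSeq table (GRCm38.p6) held 5 of the 7 interferon genes named, and the other 2 of those found, Ube2l6 and Xaf1, had no match in this window.
Irgm1, chr11:48871421-48871590, minus strand: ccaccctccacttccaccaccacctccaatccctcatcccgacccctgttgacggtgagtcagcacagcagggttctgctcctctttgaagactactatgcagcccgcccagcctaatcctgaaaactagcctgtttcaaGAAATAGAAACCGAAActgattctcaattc
Igtp, chr11:58199386-58199555, plus strand: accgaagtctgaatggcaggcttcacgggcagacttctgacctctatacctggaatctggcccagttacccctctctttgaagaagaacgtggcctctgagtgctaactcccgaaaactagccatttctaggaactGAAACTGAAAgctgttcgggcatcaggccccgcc
Ifit3, chr19:34583359-34583528, plus strand: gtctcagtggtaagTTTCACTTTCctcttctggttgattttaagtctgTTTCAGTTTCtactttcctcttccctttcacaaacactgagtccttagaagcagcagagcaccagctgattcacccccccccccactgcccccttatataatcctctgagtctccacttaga
Matches began 30 and 24 bases before the start of Irgm1, where they overlap by 4 bases, 34 bases before that of Igtp, and 156 and 122 bases before that of Ifit3, where both lie on the opposite strand. Of all 32851 windows, 613 (1.87%) held the element.

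A list of 32 interferon response genes was drawn up after these values were seen, so its counts describe and do not test. In the keratin class, 30 of its genes had at least 20 UMIs, and all 30 were higher in blockade cells, with a median ratio of 10.8. Class I presentation genes were among them: Tap1, the peptide transporter, stood at 145 CPM in blockade cells against 10.0 CPM in isotype cells. Psmb8, an immunoproteasome subunit, stood at 513 CPM against 44.6 CPM in isotype cells, H2-K1, a class I heavy chain, at 872 CPM against 103 CPM, and B2m, the class I light chain, at 5607 CPM against 1384 CPM. The list summed to 26.99 to 303 UMIs per 10000 in blockade cells, with a median of 124, and to 0 to 85.0 in isotype cells, with a median of 12.0. The ranges overlapped, with 16 of 21 blockade cells above every isotype cell and 19 of 26 isotype cells below every blockade cell.

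The list was also higher in the deep blockade cells. Among cells with at least 10000 UMIs, all 30 genes were again higher, with a median ratio of 10.8, and the list summed to a median of 135 UMIs per 10000 in 16 blockade cells and 20.4 in 14 isotype cells. Irgm1 was found in all 16 of those blockade cells and in 2 of the 14 isotype cells. Among cells with fewer UMIs, 4 genes had enough UMIs and 3 were higher. There the list sums overlapped, at 51.9 to 172 UMIs per 10000 in 5 blockade cells and 0 to 85.0 in 12 isotype cells. Of those blockade cells, 3 lay above every isotype cell. Among keratin cells with no CD3 UMI, 6 genes had enough UMIs and 3 were higher. The blockade cells of this setting were the same 5 shallow cells. Each exceeded each of the 13 isotype cells with no CD3 UMI in the list sum, at 51.9 to 172 against 0 to 51.2 UMIs per 10000. The list also differed outside the classes, where 22 of 31 genes were higher in the blockade library with a median ratio of 2.44. Over all 10346 genes compared there, 4.66% were higher and 1.59% lower by the same rule. With 1 library each, treatment and library cannot be told apart.

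**Figure D3:**
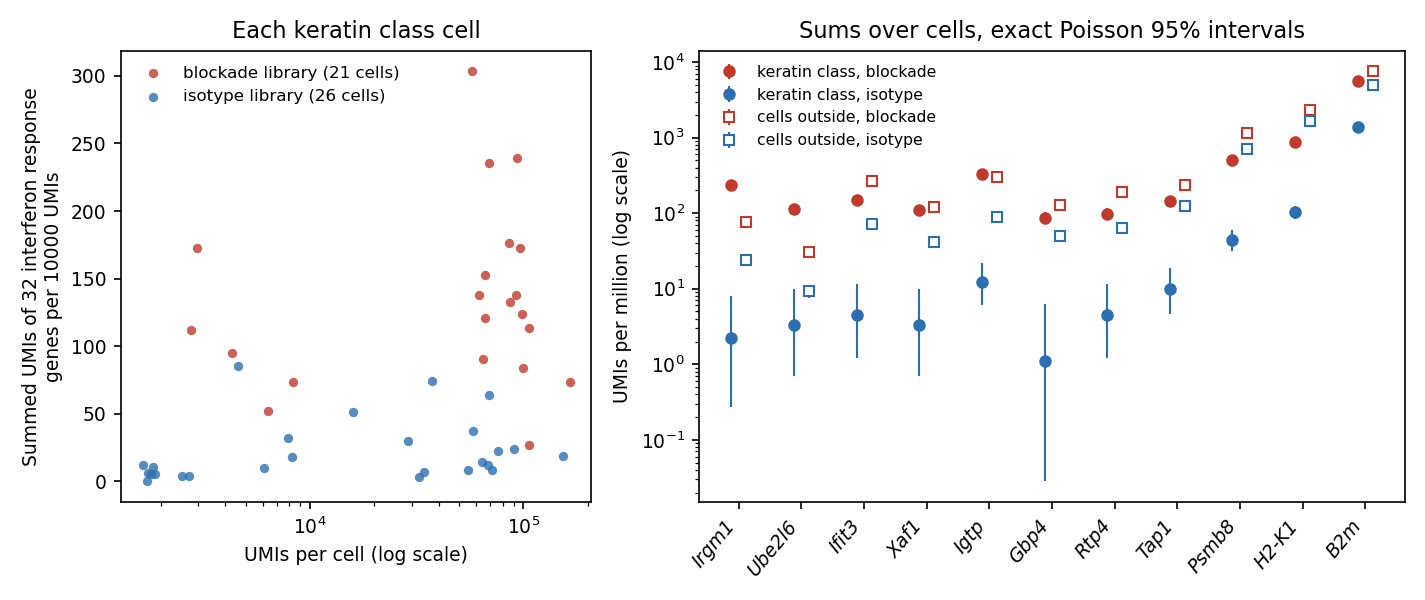
The left panel plots the summed UMIs of 32 interferon response genes per 10000 UMIs in each keratin class cell against its total UMIs (log axis): blockade cells lie at 26.99 to 303 and isotype cells at 0 to 85.0. The right panel plots CPM (log axis) of 11 genes summed over the keratin cells (filled) and over the cells outside the classes (open squares) of each library, with exact 95% Poisson intervals as error bars, and in each gene the keratin gap between libraries is wider than the outside gap.

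The same list had smaller median ratios in the other classes. In the MHC class II class, 8 of 31 genes were higher in blockade cells and none lower, with a median ratio of 1.55. In the Lyz2 class, 9 of 31 were higher and 1 lower, against 2 isotype cells only. The list already summed to a median of 158 UMIs per 10000 in isotype MHC class II cells and 172 in isotype Lyz2 cells. In isotype keratin cells the median was 12.0. Isotype cells held 115906 UMIs in the MHC class II class and 30648 in the Lyz2 class, against 896607 in the keratin class. Separate intervals are thus harder to reach in the first 2. The difference between classes was not tested. Genes lower in blockade keratin cells were Sncb, Adm, Prss22, Hsf2, Rpgrip1, Fhl3, Timm21 and Notch2. Adm, which encodes the vasodilator adrenomedullin, had 17 UMIs in blockade cells and 107 in isotype cells, and 59.7% of its UMIs came from 1 cell. Sncb had 2 UMIs in blockade cells and 22 in isotype cells, and 83.3% came from 1 cell.

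Most members lacked the CD3 content of a T cell, but some in each class had it. At least 1 CD3 UMI was found in 19 of 39 Lyz2 cells (48.7%, interval 32.4 to 65.2%), 21 of 54 MHC class II cells (38.9%, interval 25.9 to 53.1%) and 29 of 47 keratin cells (61.7%, interval 46.4 to 75.5%). Outside the classes 5315 of 5348 cells (99.4%) had one. After thinning each cell to 2000 UMIs, the shares were 33.3%, 20.8% and 9.76% in the Lyz2, MHC class II and keratin classes and 98.7% outside. Thinning left out 1 MHC class II cell, 6 keratin cells and 248 outside cells with too few UMIs. The keratin share thus fell furthest. Keratin cells were also the deepest, and why the shares fell by different amounts was not tested.

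Per 10000 UMIs, CD3 summed to 3.74 UMIs in the Lyz2 class (interval 3.24 to 4.28), 3.97 in the MHC class II class (interval 3.52 to 4.47) and 0.402 in the keratin class (interval 0.325 to 0.493), against 32.02 outside. Among outside cells, 5% had fewer than 12.3 CD3 UMIs per 10000. At or above that level lay 7 Lyz2 cells, 4 MHC class II cells and 1 keratin cell, which were 11 different cells, 9 of blockade and 2 of isotype. A small minority of members therefore had CD3 at the density of the outside cells. The density is taken over all UMIs of a droplet, so it leaves out deep members such as a blockade cell of 45421 UMIs with 46 CD3 UMIs. The part of free RNA in the members' CD3 UMIs was not tested.

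Cells with at least 5 CD3 UMIs numbered 11 in the Lyz2 class, all from the blockade library. Their CD3 ranged from 5 to 46 UMIs with a median of 11, at a median depth of 9332 UMIs, against 7039 UMIs in the 20 Lyz2 cells with no CD3. In the MHC class II class the 11 such cells, 8 of blockade and 3 of isotype, had a median depth of 24570 UMIs, against 6542 UMIs in the 33 cells with none. In the keratin class 5 such cells, 4 of blockade and 1 of isotype, had a median of 96198 UMIs, against 2867.5 UMIs in the 18 cells with none. A deeper cell reaches 5 CD3 UMIs more easily, so these depths are a description. The shallowest of the keratin cells was an isotype cell of 4587 UMIs with 11 CD3 UMIs, 23.98 per 10000. Of 14 core T cell genes, cells with at least 5 CD3 UMIs had a median of 10 detected in the Lyz2 class. The median was 12 in the MHC class II class and 8 in the keratin class. Outside cells had a median of 10 at a median depth of 3718 UMIs, and a deeper cell shows more genes. Doublets were neither called nor removed, and how many of the members are doublets was not tested.

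**Figure D4:**
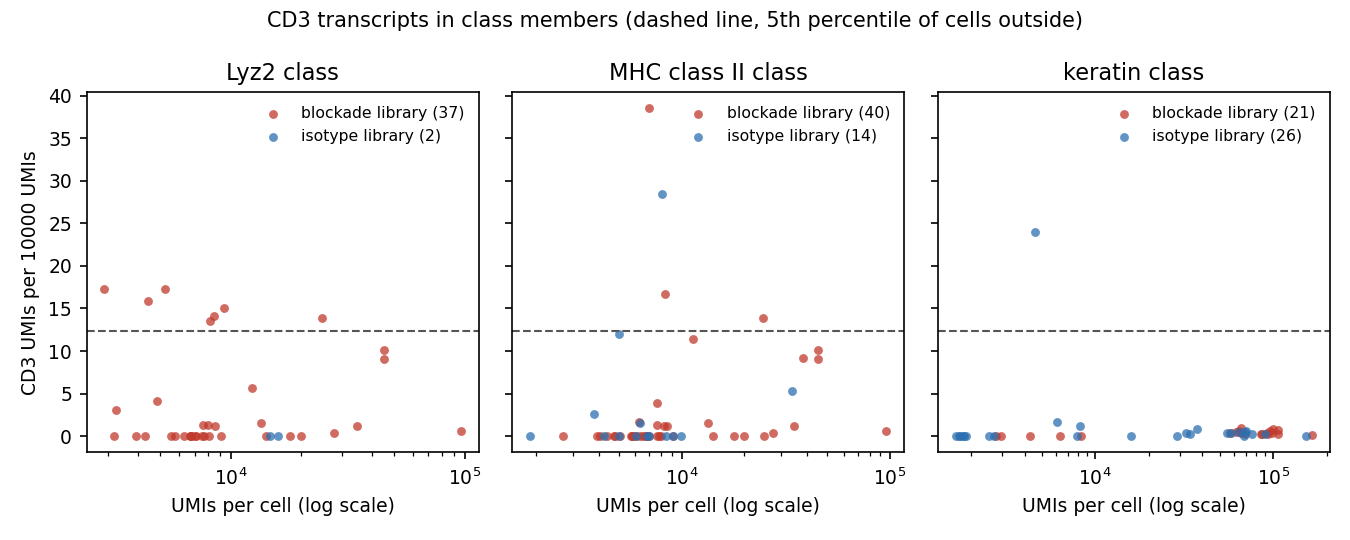
CD3 UMIs (Cd3d, Cd3e and Cd3g) per 10000 UMIs in each member against its total UMIs (log axis), with a panel for each class, blockade and isotype cells in separate colours, and a dashed line at 12.3, the 5th percentile of cells outside the classes. Above the line lie 7 Lyz2 cells, 4 MHC class II cells and 1 keratin cell, the last an isotype cell of 4587 UMIs.

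The CD8 coreceptor genes were more widespread than CD3 in the MHC class II class. Cd8a or Cd8b1 had a UMI in 61.1% of MHC class II cells, 48.7% of Lyz2 cells and 44.7% of keratin cells, against 94.2% of outside cells. Cd8a also marks type 1 conventional and plasmacytoid dendritic cells in mice, and the sort selected on CD8. In the MHC class II class Cd8a was detected in 28 cells and Cd8b1, the chain made chiefly by T cells, in 18. Outside the classes 33 cells had no CD3 UMI. In the authors' table of scaled natural log values, Cd3g averaged 0.335 ± 0.461 in the Lyz2 class and 1.62 ± 0.619 outside (SD over 39 and 5341 cells, which are not replicates).

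In the bulk DN libraries, Lyz2 rose with blockade, and each blockade library stood above each isotype library. Lyz2 had 45.4, 88.7 and 14.1 CPM in DN blockade libraries, against 3.68, 1.63 and 2.58 CPM in DN isotype libraries. The lowest blockade library, replicate 3, was still above the highest isotype library, replicate 1. The log2 fold change was 4.22 (SE 0.60, adjusted p = 0.0128, quasi-likelihood test in edgeR, Benjamini-Hochberg over 12710 genes), and it was 3.50 without blockade replicate 2. In that test 142 genes (1.12%) passed in either direction, 66 (0.519%) higher and 76 (0.598%) lower, and with the replicate number as a block 59 passed. In a bulk sample, more cells of a type and more RNA per cell cannot be told apart. The near-identical Lyz1 had 8.09, 13.8 and 2.38 CPM in DN blockade libraries and 0.919, 0.217 and 0.298 CPM in DN isotype libraries (log2 fold change 4.06, SE 0.66, adjusted p = 0.0231), so reads could be split between the genes.

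Fcgr1, the high-affinity Fc receptor of monocytes and macrophages, had 7.58, 10.0 and 2.18 CPM in DN blockade libraries and no count in any DN isotype library (adjusted p = 0.00953). Against the limit of 3 counts over the isotype group, 0.107 CPM, it was at least 61.5-fold higher. Of 23 monocyte and macrophage genes tested, 5 rose and none fell: Lyz2, Lyz1, Fcgr1, Arg1 and Ccr2. The list's median log2 fold change was 0.84, against -0.01 over all genes. Arg1 had 15.5, 15.6 and 13.2 CPM in blockade libraries against 5.28, 2.71 and 8.84 CPM in isotype libraries (adjusted p = 0.0465). Ccr2, the CCL2 receptor that memory T cells also use, had 153, 145 and 230 CPM against 92.2, 92.8 and 65.5 CPM in isotype libraries (adjusted p = 0.0272). With the replicate block the adjusted p was 0.083 for Arg1 and 0.052 for Ccr2, so neither call held in that fit. The labels do not say that equal replicate numbers mark pairs. In a fit of the 6 DN libraries alone no class gene passed, with an adjusted p of 0.141 for Lyz2.

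The 10 leading Lyz2-class genes were extended to 30 and looked up in the same bulk test. Of the 27 tested, 4 rose (Lyz2, Arg1, C3ar1 and Pilra) and none fell, with a median log2 fold change of 1.44. Of the 28 tested from the 30 leading genes of the MHC class II class, 3 rose (Lyz2, C3ar1 and Pilra), with a median of 1.35. These risen genes are all on the Lyz2-class list as well, so they are not a separate result for the MHC class II class. C1qb had 27.3, 10.4 and 0.198 CPM in blockade libraries and 0.804, 1.303 and 1.79 CPM in isotype libraries, and with an adjusted p of 0.15 it did not pass. The third blockade library was the lowest for each of Lyz2, Fcgr1 and C1qb.

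Class II genes did not pass, and their point values were lower in DN blockade libraries. H2-Aa had 159, 156 and 68.5 CPM in DN blockade libraries, against 225, 202 and 159 CPM in DN isotype libraries (log2 fold change -0.61, SE 0.28, adjusted p = 0.328), and the highest blockade and lowest isotype libraries lay side by side. H2-Ab1 had 253, 247 and 110 CPM, against 330, 317 and 241 CPM in isotype libraries (log2 fold change -0.54, SE 0.30, adjusted p = 0.411). Of 9 class II presentation genes tested none was called, with a median log2 fold change of -0.34. The higher count of MHC class II cells in the blockade droplet library thus stood beside class II transcripts that were not called in bulk. Of the plasmacytoid genes, none of 12 was called, with a median of -0.67. Siglech had 214, 361 and 243 CPM in DN blockade libraries and 561, 725 and 459 CPM in DN isotype libraries (adjusted p = 0.266), while it is listed at 0 in every single cell, with the limit on its counting given above. Ccr7 fell to 409, 295 and 144 CPM in blockade libraries, against 755, 1118 and 699 CPM in isotype libraries (log2 fold change -1.60, SE 0.33, adjusted p = 0.0415), a gene that naive T cells express as well.

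Keratins varied between libraries within a group. Krt8 had 404, 186 and 400 CPM in DN blockade libraries, against 216, 28.2 and 326 CPM in DN isotype libraries, with overlapping groups (log2 fold change 0.80, SE 0.61, adjusted p = 0.567). The 30 leading keratin-class genes were all tested and none was called. All 30 pointed higher in DN blockade libraries, with a median log2 fold change of 0.96, against -0.01 over all genes. The 30 genes were chosen from the same cells, so they are not 30 separate observations. Their summed level was 746 to 1895 CPM in blockade libraries and 120 to 1080 CPM in isotype libraries, and isotype replicate 2 held the lowest value. None of the 32 interferon response genes was called in DN libraries, with a median of 0.22. In DP libraries, 7 of the 30 leading keratin-class genes pointed higher with blockade, with a median of -0.32, and none was called.

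Every DP library had more Lyz2 than any DN isotype library, and blockade gave no call in DP cells. Lyz2 had 252, 186 and 121 CPM in DP blockade libraries, against 136, 112 and 108 CPM in DP isotype libraries (log2 fold change 0.65, SE 0.45, adjusted p = 0.841). The groups overlapped, and 8 of all genes tested (0.0629%) passed, 1 higher (0.00787%) and 7 lower (0.0551%), none of them on a class list. Fcgr1 had 32.04, 24.9 and 16.7 CPM in DP blockade libraries against 10.2, 10.7 and 9.12 CPM in DP isotype libraries, which did not overlap but did not pass (adjusted p = 0.59). Of 23 monocyte and macrophage genes tested, 22 pointed higher with blockade in DP (median log2 fold change 0.64) and 16 in DN. Of the 27 leading Lyz2-class genes tested, 25 pointed higher in DP (median 0.59) and 25 in DN. The median over all genes in DP was -0.01. Krt8 had 117, 235 and 208 CPM in DP blockade libraries against 208, 329 and 169 CPM in DP isotype libraries (adjusted p = 0.957). The difference between the DN and DP responses of Lyz2 was 3.57 on the log2 scale and did not pass (adjusted p = 0.261). Each DN library shares a number beginning with SK with a DP library of the same treatment, and with that number as a block the difference was 3.38 (adjusted p = 0.142).

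**Figure D5:**
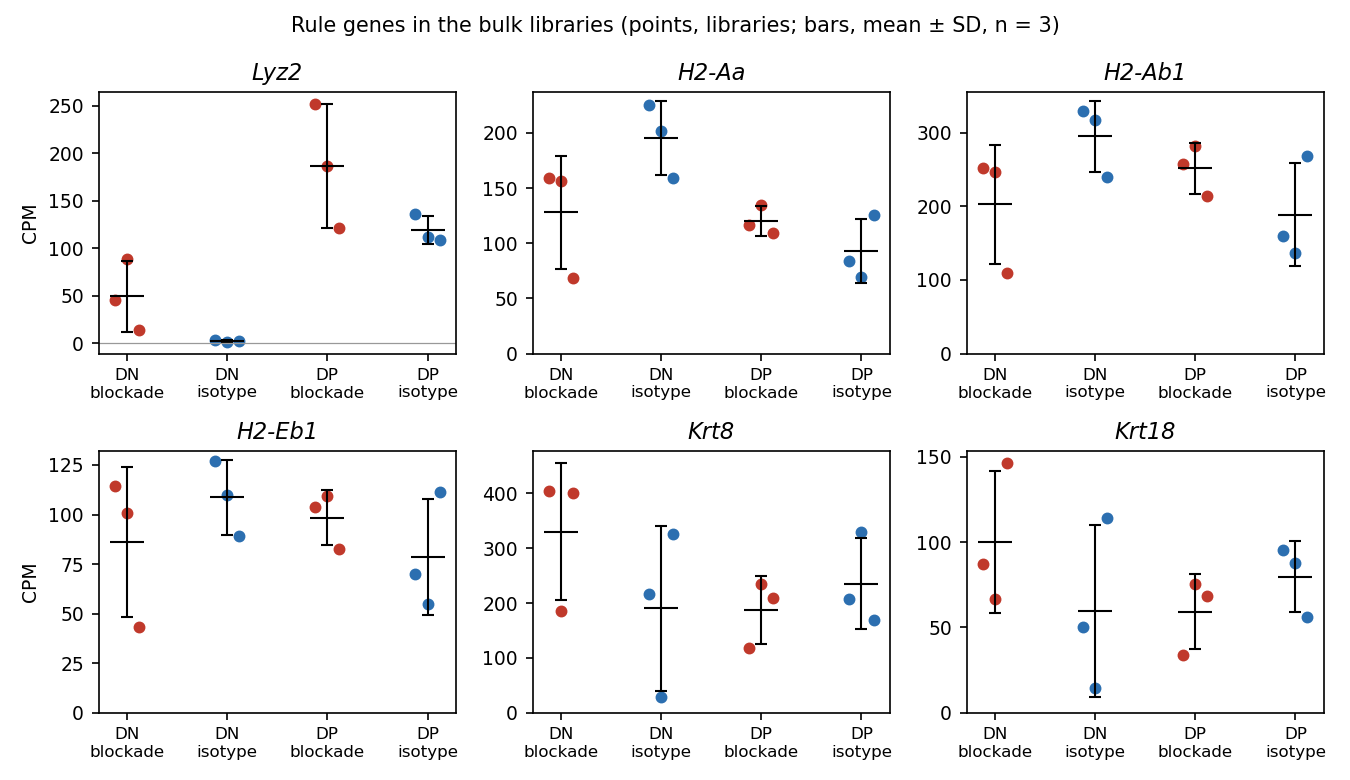
CPM of the 6 genes that chose members in each of the 12 bulk libraries (points, linear axes), with blockade left of isotype for DN and for DP and black bars for the mean ± SD (n = 3). Lyz2 sits at 14.1 to 88.7 CPM in DN blockade libraries and at 1.63 to 3.68 CPM in DN isotype libraries, while the Krt8 groups overlap.

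In the sorted subsets, Lyz2 varied from library to library within a group. It had 418, 0 and 0 CPM in effector-like libraries, a median of 0 and a highest value of 385 CPM in memory-like libraries, and 0 to 638 CPM in naive-like libraries. H2-Aa had 126 to 457 CPM in effector-like libraries, 49.1 to 263 CPM in memory-like libraries and 0 to 160 CPM in naive-like libraries. Krt8 had 131, 231 and 2.12 CPM in effector-like libraries, 4.68 to 49.2 CPM in memory-like libraries and 4.56 to 208 CPM in naive-like libraries. Each rule gene thus had its levels spread widely within at least 1 subset, and the subsets were not tested against each other. The labels of all naive-like libraries end in a different number from those of the memory-like and effector-like libraries. The naive-like subset and that number cannot be told apart.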

How the data were processed

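The members and gene lists were chosen with earlier results of these data known. The single-cell table holds UMI counts per gene and cell as deposited, from Chromium Single Cell 3′ v2 libraries and, per the submitters' processing notes, Cell Ranger 1.3 and the mm10 build. The authors' second single-cell table holds scaled natural log values, used for 1 comparison. The bulk tables hold expected counts as deposited by the authors, from an adapted SMART-Seq2 protocol. The submitters' processing notes name TopHat, RSEM, DESeq and mm9 without saying which step each served, and the counts were rounded to whole numbers.

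The class rules were applied to every cell with no cell filter. Summed UMIs of each class were expressed as CPM with Poisson intervals (exact), and Clopper-Pearson intervals were used for shares. A gene needed at least 20 UMIs to be compared. Each class names its 10 genes with the largest ratio to outside cells among those in at least 25% of its cells, up to 4 members of each list by UMIs, and up to 8 genes each way between libraries. C3ar1 and Pilra were named after their values were seen. Bulk library totals were 8005818 to 13579262 counts in the 12 treatment libraries and 5027112 to 7978200 in the 14 subset libraries. edgeR 4.0.16 (TMM, filterByExpr, quasi-likelihood test) was fitted to all 12 treatment libraries with R 4.3.3, called at an adjusted p under 0.05. DESeq2 1.42.0, another scaling, no filter, a replicate block, the 6 libraries alone and leaving out each library were alternatives. Deviations of DN libraries with the same replicate number correlated at 0.12 to 0.38, and those with different numbers at -0.34 to 0.20, so the ranges overlapped. The replicate number served as a block in alternative fits only, and the labels do not say that it marks pairs. They also give a second number beginning with SK, which differs between the treatments and is not said to mark a mouse. The fit was tested on simulated data.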

Additional observations from a re-analysis of the deposited data

Results flagged for a closer look

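Single libraries of the sorted subsets stood far from the others of their group in 4 of 12 gene and group pairs. The limits used give about 1 in 20 by chance only for normal and independent values. These CPM values are skewed and hold zeros, and Krt8 and Krt18 of the same library count separately. That rate therefore does not apply, and the count is a description. Lyz2 was 385 CPM in memory-like replicate 2 and 0 CPM in the other 4 memory-like libraries. Krt8 was 49.2 CPM in the same library, with the next highest memory-like library at 13.2 CPM. In naive-like replicate 6, Krt8 was 208 CPM against 11.4 CPM in the next library, and Krt18 was 59.1 CPM against 7.20 CPM. The cause was not tested.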

How the results depend on the processing

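The single-cell results held in 44 of 57 values over the alternatives. Counting cells of 1 class only left 21 blockade cells in the Lyz2 class and 24 in the MHC class II class. With thresholds applied to cells thinned to 2000 UMIs, 8 isotype MHC class II cells, 8 blockade keratin cells and 13 isotype keratin cells remained by the rule. The share with a CD3 UMI was 20.8% (MHC class II) and 9.76% (keratin) after thinning, and 66.7% (MHC class II) when Cd8a and Cd8b1 counted too. Of the interferon genes, 3 were higher in keratin cells under 10000 UMIs and 3 in those with no CD3 UMI, where fewer genes reached 20 UMIs; both settings, and that of deep cells, were chosen after seeing the data.

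DN calls over all genes numbered 541 with DESeq2, 224 with no filter, 2 in the 6 DN libraries alone, 59 with the replicate block in 12 libraries and 21 with it in 6, and 22 to 229 on leaving out a library, the lowest without isotype replicate 1. Called class-list genes numbered 14 with DESeq2, 0 in the 6 libraries alone, 1 with the replicate block in 6, and 2 to 8 on leaving out a library. Lyz2 and Fcgr1 passed on leaving out each library, and Lyz1 failed without isotype replicate 2. Arg1, Ccr2 and Ccr7 each failed without several libraries. With the replicate block in 12 libraries the calls of Lyz2, Lyz1, Fcgr1 and Ccr7 held. That block follows the number in the titles, which does not match the SK number that DN and DP libraries share; the fit with the SK number was chosen after seeing the data.

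DP calls numbered 63 with DESeq2, 17 with no filter, 16 in the 6 DP libraries alone, 4 and 48 with the replicate block in 12 and in 6 libraries, and 3 to 9 on leaving out a library. Called DP class-list genes numbered 1 with DESeq2, 1 with no filter and 6 with the replicate block in 6 libraries, and 0 on leaving out each library. DP libraries share only a number (correlations -0.02 to 0.099). The DP log2 changes near 0 turned sign: Arg1 (-0.12 to 0.0457 over all) was 0.012 without blockade replicate 1, 0.0457 without blockade replicate 3, 0.0014 without isotype replicate 1 and 0.0377 without isotype replicate 2; Ccr2 (-0.0356 to 0.18) was -0.0356 without blockade replicate 3 and -0.0061 without isotype replicate 1. Ccr7 (-0.38 to 0.13) was 0.13 without isotype replicate 1. The cause was not tested. The keratin class rests on 21 and 26 cells, and the Lyz2 class on 2 isotype cells, which limits every level there.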
